A study of Canis lupus familiaris with 55 samples.

Results

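Ovaries and testes of normal dog embryos were compared at gestational day 44 (d44), counted from the luteinizing hormone surge of the dam. The comparison holds 3 XX control embryos and 3 XY control embryos, which are 6 of the 55 RNA-seq libraries of the study, and they were chosen by their labels alone. Each library was made from the gonad pair of 1 embryo. All 6 embryos were littermates from wild type (-/-) beagle parents, that is without the guanine insertion on chromosome 9 that the study follows in its model of XX disorder of sex development (DSD). The remaining libraries hold embryos at risk of XX DSD, their XY littermates and younger controls, of which only the 6 XX and 6 XY controls of d37 and d39 are used below.

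In mammals the early gonad can form either organ. In XY embryos, *SRY* on the Y chromosome turns on *SOX9* in the supporting cells, which become Sertoli cells, form cords and secrete anti-Müllerian hormone, while Leydig cells between the cords make androgens. In XX embryos, R-spondin 1 and WNT4 act through beta-catenin, and together with FOXL2 they direct the same supporting cells to become pre-granulosa cells. The study sexed embryos by PCR for *SRY*, and genes of the Y chromosome were not analysed here.

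Values are FPKM, a read density scaled to transcript length and to the size of the library, so they are relative levels within a library, and they are given for embryos 1, 2 and 3 of each sex in that order. A log2 difference is the mean of log2(FPKM + 1) in XX gonads minus that in XY gonads, followed by ± its standard error (SE), means of FPKM are followed by ± SD (n = 3 embryos per sex and day), and folds are ratios of the mean FPKM. A gene was called where the limma p, adjusted over all 19081 loci tested, was under 0.05, the fold was at least 2 and 1 group mean was at least 4 FPKM, and "rose" and "fell" are kept for called genes. Because whole gonads were measured, fewer cells of a type and less RNA per cell cannot be told apart. The number of reads per library is unknown. Relative depth was estimated from the commonest ratio between the low values of the same genes in different libraries. With the deepest control library set to 1, it was 0.877, 0.914 and 0.656 for the XX libraries and 0.633, 0.429 and 0.608 for the XY libraries, so the XX libraries were all deeper. Correlations of log2 values were 0.954 to 0.957 between XX gonads, 0.939 to 0.942 between XY gonads and 0.912 to 0.922 between the sexes. As all 6 embryos come from 1 litter, p measures only the spread between these littermates.

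Of 11868 gene loci tested at d44, 1216 (10.2%) were called. Expression was higher in XX gonads for 543 (4.58%) and lower for 673 (5.67%). Both shares are the background for each list count below. Adjusted p alone was under 0.05 for 1937 genes that were higher (16.3%) and 1887 that were lower in XX (15.9%), and the 3 XX values did not overlap the 3 XY values for 3580 higher (30.2%) and 3050 lower genes (25.7%). The median log2 difference of all gene loci was 0.04. With relative depth as a covariate, 421 genes were higher and 475 lower, and 895 of these 896 calls were among the 1216.

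**Figure D1:**
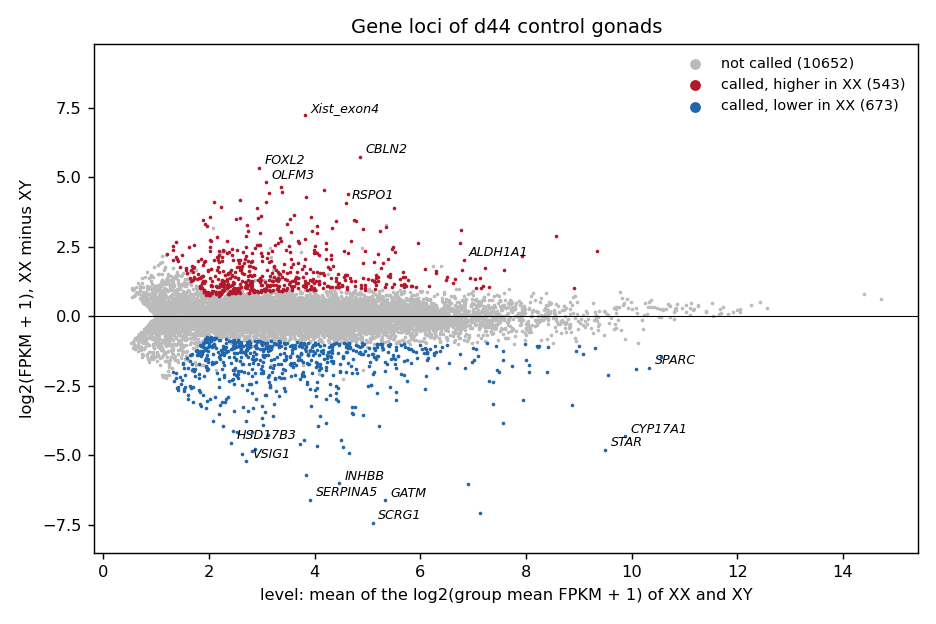
Each point is 1 of 11868 gene loci, with its mean level on the x axis (the mean over both sexes of log2(group mean FPKM + 1)) and the log2(FPKM + 1) difference, XX minus XY, on the y axis. Red points are the 543 genes called higher in XX and blue points the 673 called lower. *Xist_exon4*, *CBLN2* and *FOXL2* lie at the top, *SCRG1*, *GATM* and *SERPINA5* at the bottom, and *CYP17A1* and *STAR* far to the right among the lower genes.

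Of 26 tested genes of WNT and R-spondin signalling, 12 rose in XX and 1 (*SFRP2*) fell, against 4.58% and 5.67% of all genes, and those that rose included ligands, nuclear factors and targets. The median log2 difference of the 26 was 0.70. The list has 32 members, of which 30 had a locus of their own. *RSPO1*, the secreted R-spondin that amplifies WNT signals (chromosome 15, 4850434 to 4877125, plus strand), had 106, 90 and 99.99 FPKM in XX gonads, against 5.11, 5.48 and 4.05 FPKM in XY gonads. The groups were far apart, 20.2-fold higher in XX (log2 difference 4.09 ± 0.12, adjusted p = 1.7e-05). The ligand gene *WNT4* (chromosome 2, 77116779 to 77129764, plus strand) had 33, 35 and 37.6 FPKM in XX gonads, against 6.59, 6.34 and 6.59 FPKM in XY gonads, which was 5.41-fold higher in XX (log2 difference 2.27 ± 0.07, adjusted p = 2.3e-05). *WNT6*, another ligand, had 69.1, 69.1 and 70.1 FPKM in XX gonads, against 15.1, 11 and 12.2 FPKM in XY gonads (log2 difference 2.36 ± 0.12, adjusted p = 9.1e-05). Both ligands varied little between littermates of either sex.

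Genes known as direct targets and feedback inhibitors of beta-catenin were among those that rose. *SP5*, a transcription factor induced by WNT (chromosome 36, 15253612 to 15263864, plus strand), had 9.3, 11.3 and 13 FPKM in XX gonads, against 0.255, 0.219 and 0.313 FPKM in XY gonads, 42.6-fold higher in XX (log2 difference 3.26 ± 0.14, adjusted p = 5.7e-05). *NOTUM*, which encodes a secreted enzyme that inactivates WNT proteins, had 81.1, 88.7 and 96.9 FPKM in XX gonads, against 8.72, 8.33 and 5.34 FPKM in XY gonads (log2 difference 3.43 ± 0.18, adjusted p = 0.00011). *NKD1*, an inhibitor inside the cell, had 41.3, 41.2 and 48.3 FPKM in XX gonads, against 3.77, 5.42 and 3.83 FPKM in XY gonads (log2 difference 3.07 ± 0.14, adjusted p = 7.2e-05). None of these 3 genes had an overlap between the sexes. *AXIN2*, the classical WNT target, averaged 37.6 ± 4.58 FPKM in XX gonads and 13.4 ± 0.646 FPKM in XY gonads, and the nuclear partners of beta-catenin *LEF1* and *TCF7* were 2.6-fold higher and 3.23-fold higher in XX. The ubiquitin ligase gene *ZNRF3*, which removes WNT receptors and is itself opposed by R-spondins, averaged 8.92 ± 0.461 FPKM in XX gonads and 4.33 ± 0.507 FPKM in XY gonads. The ligand gene *WNT2B* rose 2.24-fold.

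Receptors and beta-catenin itself were not among them. The R-spondin receptor gene *LGR4* had 27.5, 24.9 and 26.7 FPKM in XX gonads, against 18.8, 22.8 and 24.7 FPKM in XY gonads (log2 difference 0.25 ± 0.11, adjusted p = 0.16), while *LGR5* reached at most 0.153 FPKM in any library and was not tested. *CTNNB1*, which encodes beta-catenin, had 203, 216 and 215 FPKM in XX gonads, against 255, 249 and 286 FPKM in XY gonads, slightly higher in every XY gonad (log2 difference -0.31 ± 0.08, adjusted p = 0.038) but not 2-fold different. Its adjusted p was 0.052 to 0.23 in 8 alternatives, which include the depth covariate and leaving out any 1 XX embryo. The co-receptor gene *LRP5* averaged 16.3 ± 1.02 FPKM in XX gonads and 27.5 ± 3.25 FPKM in XY gonads (log2 difference -0.72 ± 0.11, adjusted p = 0.0054). With depth as a covariate the adjusted p of *LRP5* was 0.12. Secreted antagonists went both ways: *SFRP1* had 42.1, 68.8 and 57.4 FPKM in XX gonads, against 15.9, 24.3 and 27.3 FPKM in XY gonads and rose in XX (log2 difference 1.29 ± 0.25, adjusted p = 0.015), whereas *SFRP2* had 16.8, 21.9 and 19 FPKM in XX gonads, against 76.1, 69.7 and 88.8 FPKM in XY gonads and fell (log2 difference -1.97 ± 0.13, adjusted p = 0.00028). *RSPO2* stayed under 1 FPKM in all 6 gonads. The call of *SFRP1* was lost with depth as a covariate (adjusted p 0.12) and without XX embryo 2 (0.056) or 3 (0.074).

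**Figure D2:**
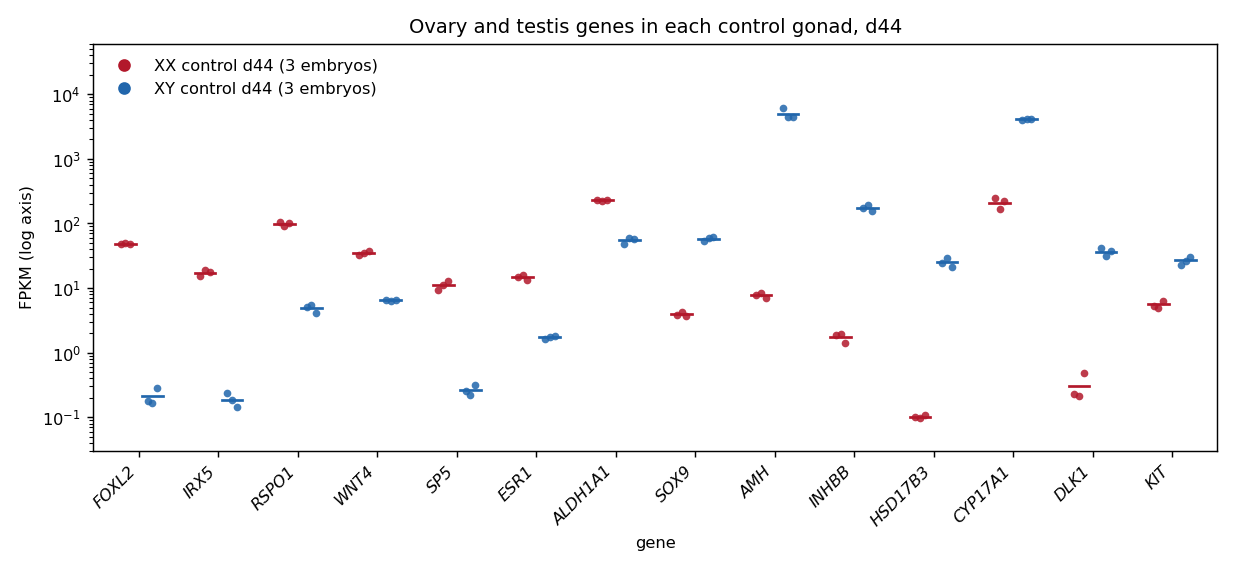
Each point is the FPKM of 1 gonad pair on a log axis, for 14 genes, with XX embryos (red) left of XY embryos (blue) and a bar at the mean of 3 embryos. *FOXL2*, *IRX5*, *RSPO1*, *WNT4*, *SP5*, *ESR1* and *ALDH1A1* are higher in all 3 XX gonads, and *SOX9*, *AMH*, *INHBB*, *HSD17B3*, *CYP17A1*, *DLK1* and *KIT* are higher in all 3 XY gonads.

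Of 15 tested genes of pre-granulosa cells, the supporting cells of the embryonic ovary, 6 rose and 0 fell, against 4.58% and 5.67% of all genes. Their median log2 difference was 1.06. *FOXL2* led them. This forkhead transcription factor gene (chromosome 23, 35145964 to 35147181, minus strand) had 47.5, 50.2 and 47.8 FPKM in XX gonads, against 0.178, 0.168 and 0.289 FPKM in XY gonads. It was close to absent in testes, 229.6-fold higher in XX (log2 difference 5.35 ± 0.08, adjusted p = 2.1e-06). *IRX5*, an Iroquois homeobox gene (chromosome 2, 60957233 to 61024721, minus strand), had 15.5, 18.7 and 17.6 FPKM in XX gonads, against 0.236, 0.182 and 0.143 FPKM in XY gonads, 92.2-fold higher in XX (log2 difference 3.94 ± 0.10, adjusted p = 1.3e-05). Its neighbour *IRX3* had 3.16, 3.07 and 3.71 FPKM in XX gonads, against 0.748, 0.508 and 0.372 FPKM in XY gonads, a 6.1-fold ratio with an adjusted p of 0.0019 that was not called because its mean stayed under 4 FPKM. The same limit applied to *CYP19A1*, which encodes the aromatase that makes estrogens, with 2.47, 2.2 and 3.51 FPKM in XX gonads, against 0.227, 0.523 and 0.494 FPKM in XY gonads (log2 difference 1.39 ± 0.22, adjusted p = 0.0065), and to *RUNX1*, a supporting-cell transcription factor in mice, with 1.64, 1.79 and 2.09 FPKM in XX gonads, against 0.272, 0.383 and 0.443 FPKM in XY gonads.

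Among signals and receptors of these cells, *BMP2*, *FST* and *ESR2* rose, and *KITLG* was not called. *BMP2*, a secreted growth factor, had 6.23, 5.38 and 5.09 FPKM in XX gonads, against 1.46, 1.42 and 1.56 FPKM in XY gonads (log2 difference 1.4 ± 0.10, adjusted p = 0.00042). *FST*, which encodes the activin-binding protein follistatin, had 15.2, 13.3 and 12.8 FPKM in XX gonads, against 7.28, 2.89 and 5.58 FPKM in XY gonads, 2.62-fold higher in XX (log2 difference 1.30 ± 0.27, adjusted p = 0.019). Its adjusted p was 0.26 with depth as a covariate and 0.073, 0.065 and 0.074 without XX embryo 1, 2 or 3. *ESR2*, the gene of estrogen receptor beta, had 9.25, 9.6 and 9.4 FPKM in XX gonads, against 3.87, 5.05 and 4.98 FPKM in XY gonads, just over 2-fold higher (log2 difference 0.89 ± 0.10, adjusted p = 0.0022), and under 2-fold once the libraries were rescaled by their median ratio. *KITLG*, the ligand of KIT, had 32.2, 33.6 and 29.8 FPKM in XX gonads, against 32.4, 47.9 and 57.9 FPKM in XY gonads, with overlap between the sexes (log2 difference -0.48 ± 0.21, adjusted p = 0.15). The untested member of the 16 listed, *LHX2*, was near 0.

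Transcription factors of the early gonad were expressed in both sexes at similar orders of magnitude. *WT1*, which the early gonad of both sexes needs (chromosome 18, 35094822 to 35152262, plus strand), had 74.2, 75.6 and 80 FPKM in XX gonads, against 37.7, 32.2 and 33.5 FPKM in XY gonads, 2.22-fold higher in XX (log2 difference 1.13 ± 0.08, adjusted p = 0.00042). *EMX2*, a homeobox gene of the urogenital ridge, had 80.6, 87.8 and 81.8 FPKM in XX gonads, against 29.8, 28.2 and 32.6 FPKM in XY gonads (log2 difference 1.44 ± 0.08, adjusted p = 0.00015). *GATA4* had 60.2, 56.7 and 59.6 FPKM in XX gonads, against 70.1, 66.8 and 64.1 FPKM in XY gonads, and that difference did not pass the test (log2 difference -0.18 ± 0.07, adjusted p = 0.11). *NR5A1*, which encodes steroidogenic factor 1, had 64.6, 57.8 and 63.8 FPKM in XX gonads, against 104, 91.5 and 89.1 FPKM in XY gonads and was read from the table of annotated genes (log2 difference -0.60 ± 0.09, adjusted p = 0.0032). It was lower in every XX gonad, by less than 2-fold. *LHX9* averaged 60.9 ± 10.4 FPKM in XX gonads and 35.1 ± 5.47 FPKM in XY gonads and *SIX4* 2.5 ± 0.323 FPKM in XX gonads and 0.657 ± 0.096 FPKM in XY gonads, neither of them called. Of 12 early gonad genes tested among 14 listed, 2 rose and 0 fell, against 4.58% and 5.67% of all genes.

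Of 17 tested Sertoli cell genes, 11 fell in XX and 1 rose, against 5.67% and 4.58% of all genes, and their median log2 difference was -2.34. *AMH*, the hormone that makes the Müllerian ducts regress, was read from the table of annotated genes and had 7.73, 8.32 and 7.08 FPKM in XX gonads, against 6111, 4499 and 4430.0 FPKM in XY gonads. The XY mean was 650.1 times the XX mean (log2 difference -9.15 ± 0.14, adjusted p = 6.3e-07). *SOX9*, the transcription factor gene at the centre of testis formation (chromosome 9, 8275049 to 8280390, plus strand), had 3.87, 4.28 and 3.73 FPKM in XX gonads, against 53.6, 58.9 and 61.6 FPKM in XY gonads, 14.7-fold lower in XX (log2 difference -3.57 ± 0.09, adjusted p = 1.1e-05). Its relatives differed from each other: *SOX10* had 0.399, 0.342 and 0.269 FPKM in XX gonads, against 6.38, 6.86 and 7.27 FPKM in XY gonads (log2 difference -2.55 ± 0.11, adjusted p = 6.6e-05), while *SOX8* reached at most 0.362 FPKM and was not tested. *DMRT1*, which maintains testis identity in mice and is also expressed in germ cells, had 1.51, 2.15 and 3.28 FPKM in XX gonads, against 17, 15.2 and 14.2 FPKM in XY gonads (log2 difference -2.34 ± 0.20, adjusted p = 0.00067). All 3 XY values of *DMRT1* lay above every XX value.

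*INHBB* (chromosome 19, 29765635 to 29770311, minus strand), which encodes the beta B subunit of inhibin and activin, had 1.85, 1.97 and 1.43 FPKM in XX gonads, against 176, 192 and 158 FPKM in XY gonads, 100.2-fold lower in XX (log2 difference -6.00 ± 0.11, adjusted p = 6.7e-06). *MRO*, a gene named for its expression in male mouse gonads, had 1.53, 1.45 and 0.847 FPKM in XX gonads, against 22.6, 30.4 and 29.6 FPKM in XY gonads (log2 difference -3.65 ± 0.17, adjusted p = 7.3e-05). *CLDN11*, the tight junction protein of Sertoli cells, had 3.32, 2.95 and 3 FPKM in XX gonads, against 52.2, 108 and 43.2 FPKM in XY gonads. Its spread among testes was wide, yet the lowest testis was still above all ovaries (log2 difference -3.95 ± 0.33, adjusted p = 0.00061). *CITED1*, an X-linked transcriptional coregulator gene, had 2.47, 2.8 and 2.79 FPKM in XX gonads, against 28.6, 28.5 and 21.5 FPKM in XY gonads (log2 difference -2.87 ± 0.13, adjusted p = 6.6e-05). *PTGDS*, the prostaglandin D synthase gene that acts beside *SOX9* in mice, was abundant in both sexes, with 871, 888 and 930.0 FPKM in XX gonads, against 2383, 3414 and 1849 FPKM in XY gonads, and fell in XX (log2 difference -1.46 ± 0.22, adjusted p = 0.0053), with an adjusted p of 0.098 once depth was a covariate.

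*FGF9*, a growth factor that maintains *Sox9* in mice, had 4.35, 4.5 and 4.3 FPKM in XX gonads, against 3.62, 4.77 and 4.9 FPKM in XY gonads. The sexes overlapped, and the log2 difference was -0.00 with an SE of 0.12 (adjusted p = 0.98). *VNN1*, *ETV5* and *SLC52A3* overlapped as well, and *HOPX* went the other way, with 4.97, 7.3 and 5.47 FPKM in XX gonads, against 1.68, 1.71 and 3.48 FPKM in XY gonads (log2 difference 1.10 ± 0.24, adjusted p = 0.022). The *HOPX* call was lost without any 1 of 5 libraries (adjusted p 0.051 to 0.082; all but XY embryo 3) and with depth as a covariate (0.27). *ERBB4* had 0.427, 0.271 and 0.425 FPKM in XX gonads, against 1.68, 3.02 and 3.8 FPKM in XY gonads, below the limit of 4 FPKM for a call. *DHH*, the hedgehog ligand of Sertoli cells, shares its locus with *LMBR1L*, and that locus had 25, 25.6 and 24 FPKM in XX gonads, against 68.5, 52.8 and 50.9 FPKM in XY gonads, so it was not counted. *AARD*, another of the 21 listed, was at 0 in all 6 libraries.

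Of 14 tested genes of Leydig cells and steroidogenesis, 12 fell in XX and 0 rose, against 5.67% and 4.58% of all genes. Their median log2 difference was -2.62. The enzymes that turn cholesterol into androgens were among those that fell. *STAR*, which brings cholesterol into mitochondria (chromosome 16, 27326036 to 27337819, plus strand), had 175, 92.1 and 150.4 FPKM in XX gonads, against 3296, 4186 and 3851 FPKM in XY gonads, 27.2-fold lower in XX (log2 difference -4.80 ± 0.25, adjusted p = 9.8e-05). *CYP11A1*, the side-chain cleavage enzyme, had 66.4, 44.5 and 55.3 FPKM in XX gonads, against 545, 438 and 495 FPKM in XY gonads (log2 difference -3.14 ± 0.16, adjusted p = 0.0001), and *FDX1*, its electron donor, had 60.3, 43.4 and 43.3 FPKM in XX gonads, against 709, 601 and 841 FPKM in XY gonads (log2 difference -3.85 ± 0.18, adjusted p = 7.4e-05). *CYP17A1*, which converts progestogens to androgens, had 244, 166 and 222 FPKM in XX gonads, against 4059.7, 4164 and 4180.4 FPKM in XY gonads, 19.6-fold lower in XX (log2 difference -4.31 ± 0.15, adjusted p = 2.7e-05). Even the lowest ovary therefore had over 100 FPKM of this gene. The final step had the largest fold of these: *HSD17B3* (chromosome 1, 70550869 to 70600859, plus strand), which makes testosterone, had 0.103, 0.0971 and 0.108 FPKM in XX gonads, against 24.7, 29 and 21.2 FPKM in XY gonads, 243-fold lower in XX (log2 difference -4.55 ± 0.12, adjusted p = 1.4e-05).

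Receptors and other markers of Leydig cells were also lower in XX. *LHCGR*, the receptor of luteinizing hormone, had 6.08, 4.84 and 4.54 FPKM in XX gonads, against 12.1, 18.7 and 22.3 FPKM in XY gonads (log2 difference -1.57 ± 0.23, adjusted p = 0.0047), and *PRLR*, the prolactin receptor, averaged 10.2 ± 1.13 FPKM in XX gonads and 34.3 ± 10.7 FPKM in XY gonads. With depth as a covariate the adjusted p of these receptors was 0.087 and 0.12. *SCARB1*, which takes up cholesterol from lipoproteins, had 89.3, 81.3 and 87.4 FPKM in XX gonads, against 651, 677 and 758 FPKM in XY gonads (log2 difference -3.00 ± 0.09, adjusted p = 1.7e-05). *DLK1* (chromosome 8, 68950127 to 68970478, plus strand), a membrane protein of the Notch ligand family found on fetal Leydig cells, had 0.226, 0.214 and 0.486 FPKM in XX gonads, against 41, 31.8 and 37.4 FPKM in XY gonads, 119-fold lower in XX (log2 difference -4.85 ± 0.13, adjusted p = 1.4e-05). *INHA*, the inhibin alpha subunit, had 165, 157 and 182 FPKM in XX gonads, against 766, 613 and 646 FPKM in XY gonads (log2 difference -2.00 ± 0.11, adjusted p = 0.00013). *INSL3*, the hormone of testis descent, shares a locus with *JAK3*. That locus had 44.4, 30.7 and 34.2 FPKM in XX gonads, against 1722, 1762 and 1334 FPKM in XY gonads, but the reads of the 2 genes cannot be told apart, so it was not counted.

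*CYB5A*, a cofactor of *CYP17A1*, did not follow, with 1748, 1570.5 and 1707 FPKM in XX gonads, against 1413, 1558 and 1283 FPKM in XY gonads (log2 difference 0.24 ± 0.10, adjusted p = 0.12). The list has 17 members. Among genes of cholesterol synthesis and uptake, 6 of 18 tested (of 20 listed) fell and 0 rose, against 5.67% and 4.58% of all genes. *CYP51A1*, a demethylase of the sterol pathway, had 27.8, 29.6 and 27.2 FPKM in XX gonads, against 88.8, 65.7 and 115 FPKM in XY gonads (log2 difference -1.60 ± 0.20, adjusted p = 0.0027). Adjusted p was under 0.05 for 11 of the 18, all lower in XX, against 15.9% of all genes, and 14 had every XX value below every XY value, against 25.7% of all genes. Their median log2 difference was -0.63.

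In XY embryo 2, whose library was the shallowest of the 6, *SQLE* had 51.0 FPKM against 98.3 and 93.1 FPKM in the other testes, and *IDI1*, *INSIG1*, *FDPS* and *FDFT1* were likewise lowest there among testes. *SQLE*, the squalene epoxidase gene, had 34, 40.9 and 31.2 FPKM in XX gonads (log2 difference -1.12 ± 0.27, adjusted p = 0.028). Leaving out single libraries raised its adjusted p to between 0.061 and 0.12 for each library but XY embryo 2. The call of *IDI1* was lost without the same libraries (0.054 to 0.099) and that of *INSIG1* without XX embryo 1 (0.057) or 3 (0.072), and the list then counted 3 to 7 genes that fell. With depth as a covariate their adjusted p was 0.015 to 0.024.

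Genes of the interstitium between the cords showed no common direction. *PTCH1*, the hedgehog receptor and a target of hedgehog signalling, had 6.35, 6.42 and 6.62 FPKM in XX gonads, against 20.6, 18.1 and 24.3 FPKM in XY gonads (log2 difference -1.55 ± 0.11, adjusted p = 0.00039), whereas *GLI1*, another target, had 6.76, 6.63 and 5.39 FPKM in XX gonads, against 11.7, 9.56 and 7.22 FPKM in XY gonads, which did not pass the test (adjusted p = 0.085). *MYH11*, a smooth muscle myosin, was higher in XX, with 11.3, 10.9 and 10.4 FPKM in XX gonads, against 5.45, 4.8 and 4.98 FPKM in XY gonads (log2 difference 0.97 ± 0.08, adjusted p = 0.00049). *NR2F2*, a marker of steroidogenic progenitors, had 112, 127 and 116 FPKM in XX gonads, against 62.7, 63.6 and 63.8 FPKM in XY gonads, just under 2-fold higher in XX (log2 difference 0.89 ± 0.07, adjusted p = 0.00063). Of 13 tested genes of 15 listed, 1 rose and 3 fell, against 4.58% and 5.67% of all genes. Summed levels were 271 to 336 FPKM in XX gonads and 289 to 310.1 FPKM in XY gonads.

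In the TGF-beta family, hormone and receptor went in opposite directions. *AMHR2* (chromosome 27, 1788291 to 1795743, minus strand), the receptor of anti-Müllerian hormone, had 55.1, 47.7 and 57.2 FPKM in XX gonads, against 24.1, 25.7 and 17 FPKM in XY gonads and rose in XX (log2 difference 1.24 ± 0.17, adjusted p = 0.0038), while *AMH* itself was almost entirely in testes. *INHBA*, the beta A subunit of inhibin and activin, had 5.89, 5.99 and 5.56 FPKM in XX gonads, against 24.1, 21.1 and 20.6 FPKM in XY gonads (log2 difference -1.75 ± 0.08, adjusted p = 8e-05). *SMAD7*, an inhibitor of the pathway inside the cell, had 8.18, 8.68 and 7.58 FPKM in XX gonads, against 29, 35.9 and 29.9 FPKM in XY gonads (log2 difference -1.83 ± 0.11, adjusted p = 0.00015). *BMPR1B*, a BMP receptor, had 3.88, 3.05 and 2.45 FPKM in XX gonads, against 0.381, 0.633 and 0.577 FPKM in XY gonads and *NOG*, a secreted BMP antagonist, 0.184, 0.138 and 0.186 FPKM in XX gonads, against 2.02, 1.51 and 2.07 FPKM in XY gonads, both below the limit of 4 FPKM. The oocyte factor gene *BMP15* reached at most 0.012 FPKM and *GDF9* averaged 1.88 ± 0.271 FPKM in XX gonads and 1.53 ± 0.321 FPKM in XY gonads. Of 17 tested genes of 28 listed, 2 rose and 2 fell, against 4.58% and 5.67% of all genes.

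Basement membrane genes of the cords were mixed too. *LAMC3*, a laminin gamma chain, had 39.2, 46.3 and 36.4 FPKM in XX gonads, against 189, 134 and 126 FPKM in XY gonads (log2 difference -1.84 ± 0.18, adjusted p = 0.0011), and *LAMA1*, an alpha chain, had 35.4, 32.9 and 35.9 FPKM in XX gonads, against 67.2, 75.8 and 83.5 FPKM in XY gonads (log2 difference -1.09 ± 0.10, adjusted p = 0.00086). *SPARC*, a secreted protein that binds collagen, had 646, 703 and 692 FPKM in XX gonads, against 2622, 2597 and 2110.0 FPKM in XY gonads, 3.59-fold lower in XX (log2 difference -1.84 ± 0.11, adjusted p = 0.00015), and *COL18A1* averaged 41.5 ± 3.43 FPKM in XX gonads and 105 ± 8.23 FPKM in XY gonads. *FN1*, fibronectin, went the other way, with 123, 157 and 138 FPKM in XX gonads, against 39.9, 43.9 and 46.6 FPKM in XY gonads (log2 difference 1.65 ± 0.11, adjusted p = 0.0003). The main chains of collagen IV did not differ by the test: *COL4A1* averaged 209 ± 18.3 FPKM in XX gonads and 223 ± 6.53 FPKM in XY gonads (adjusted p = 0.44) and *COL4A2* 157 ± 7.37 FPKM in XX gonads and 167 ± 9.53 FPKM in XY gonads (adjusted p = 0.43). Of 18 tested genes of 20 listed, 1 rose and 5 fell, against 4.58% and 5.67% of all genes.

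**Figure D3:**
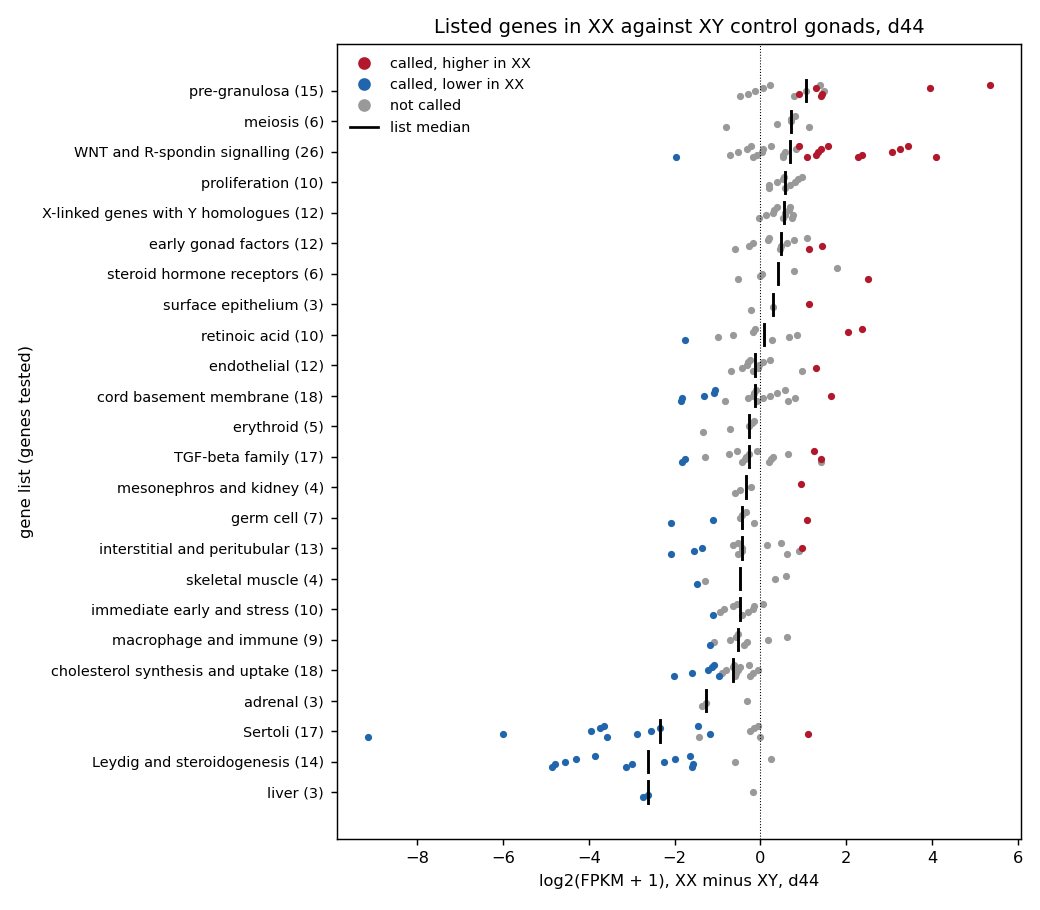
Each point is 1 tested gene of the named list, placed by its log2(FPKM + 1) difference, XX minus XY, at d44, with called genes in red (higher in XX) or blue (lower in XX), the others in grey and a black bar at the list median. Vertical offsets within a row only separate points. Pre-granulosa genes have the highest median (1.06), Leydig (median -2.62) and Sertoli genes (median -2.34) lie mostly to the left, and *AMH* is the leftmost point (-9.15).

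Of 6 tested steroid hormone receptors among 7 listed, 1 rose and 0 fell, against 4.58% and 5.67% of all genes. *ESR1*, estrogen receptor alpha (chromosome 1, 41985890 to 42368689, plus strand), had 14.7, 15.8 and 13.4 FPKM in XX gonads, against 1.61, 1.76 and 1.83 FPKM in XY gonads, 8.41-fold higher in XX (log2 difference 2.51 ± 0.09, adjusted p = 2.8e-05). *PGR*, the progesterone receptor, had 2.48, 2.91 and 2.34 FPKM in XX gonads, against 0.0292, 0.0598 and 0.0412 FPKM in XY gonads, without overlap but under 4 FPKM (log2 difference 1.77 ± 0.22, adjusted p = 0.0027). *NR3C1*, the glucocorticoid receptor, averaged 7.54 ± 0.22 FPKM in XX gonads and 11.3 ± 1.29 FPKM in XY gonads (log2 difference -0.53 ± 0.10, adjusted p = 0.011). With depth as a covariate the adjusted p was 0.069 for *PGR* and 0.15 for *NR3C1*. That of *NR3C1* was also 0.057 without XX embryo 3.

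Of 18 germ cell genes listed, 11 had a locus of their own and 6 were not identified, *DAZL* and *POU5F1* among them. *DDX4*, the germ cell helicase, had at most 0.519 FPKM, and *NANOS2* was listed at 0 in all 6 libraries. *DPPA3*, a gene of early germ cells, had 5.09, 4.28 and 8.46 FPKM in XX gonads, against 16.4, 13.9 and 10.4 FPKM in XY gonads, lower in every XX gonad (log2 difference -1.10 ± 0.26, adjusted p = 0.027). Its adjusted p was 0.064 to 0.097 without XX embryo 1 or 2 or XY embryo 1 or 2, and 0.34 with depth as a covariate. *MAEL*, which protects the germ line against transposons, had 4.75, 4.39 and 5.78 FPKM in XX gonads, against 2.15, 2.06 and 1.24 FPKM in XY gonads and rose in XX (log2 difference 1.10 ± 0.17, adjusted p = 0.0066). *KIT*, the receptor of stem cell factor, was the largest difference in the list, with 5.35, 4.96 and 6.39 FPKM in XX gonads, against 23.1, 26.7 and 30.7 FPKM in XY gonads (log2 difference -2.08 ± 0.13, adjusted p = 0.00023), but it is also expressed by somatic cells. *LIN28A*, *TFAP2C*, *NANOS3* and *PRDM1* overlapped between the sexes. Of 7 tested genes of 18 listed, 1 rose and 2 fell, against 4.58% and 5.67% of all genes. Summed levels were 25.1 to 37.3 FPKM in XX gonads and 57.2 to 63.4 FPKM in XY gonads.

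None of the 6 meiosis genes tested, of 15 listed, was called, against 10.2% of all genes. *STRA8*, which mouse germ cells need to enter meiosis, had at most 0.064 FPKM in any gonad. *SYCE2*, a protein of the synaptonemal complex, had 2.56, 2.54 and 2.61 FPKM in XX gonads, against 1.12, 1.19 and 0.842 FPKM in XY gonads (log2 difference 0.80 ± 0.14, adjusted p = 0.01), *MEI1* averaged 2.1 ± 0.196 FPKM in XX gonads and 0.906 ± 0.121 FPKM in XY gonads and *MEIOB* 2.95 ± 0.86 FPKM in XX gonads and 1.37 ± 0.192 FPKM in XY gonads. Adjusted p was under 0.05 for these 3, against 16.3% of all genes, all higher in XX and all under 4 FPKM. For *MEIOB* it was over 0.05 without any 1 of 5 libraries (0.052 to 0.13) and for *MEI1* without any 1 of 4 (0.055 to 0.092). *SYCE2* had 0.053 and 0.051 without XX embryo 1 or 2. With depth as a covariate the adjusted p was 0.11 for *SYCE2*, 0.20 for *MEI1* and 0.41 for *MEIOB*. *REC8*, the meiotic cohesin, had 5.28, 5.64 and 4.87 FPKM in XX gonads, against 4.72, 3.48 and 3.31 FPKM in XY gonads (log2 difference 0.38 ± 0.13, adjusted p = 0.086).

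Of 10 tested genes of retinoic acid metabolism and signalling among 15 listed, 2 rose and 1 fell, against 4.58% and 5.67% of all genes. Retinoic acid is a signal that promotes meiosis in mice. *CYP26B1* (chromosome 17, 50633416 to 50653930, plus strand), the enzyme that degrades retinoic acid in the mouse testis, had 4.82, 6.07 and 5.17 FPKM in XX gonads, against 20.8, 19.5 and 21 FPKM in XY gonads (log2 difference -1.76 ± 0.09, adjusted p = 0.00011). Of the synthesizing enzymes, *ALDH1A1* (chromosome 1, 84940066 to 84994781, plus strand) had 229, 223 and 231 FPKM in XX gonads, against 48.3, 59.4 and 57.2 FPKM in XY gonads and rose in XX (log2 difference 2.04 ± 0.10, adjusted p = 7.5e-05). *ALDH1A2* had 63.6, 88 and 70.3 FPKM in XX gonads, against 145, 153 and 139 FPKM in XY gonads, lower in every XX gonad but just under 2-fold (log2 difference -0.98 ± 0.13, adjusted p = 0.0034). The receptors *RARA* and *RARB* overlapped, and *RARG* averaged 5.21 ± 0.508 FPKM in XX gonads and 2.95 ± 0.504 FPKM in XY gonads. With rescaled values *ALDH1A2* was called as well, and with depth as a covariate its adjusted p was 0.07.

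Markers of other tissues were used to look for neighbouring organs in the dissection. For mesonephros and kidney, *PAX2* had at most 0.033 FPKM, *LHX1* 0.054 FPKM and *UMOD* 0.12 FPKM, and the summed levels of the 13 markers with a value were 17.1 to 20.6 FPKM in XX gonads and 17.6 to 21.6 FPKM in XY gonads. Of the 4 tested, 1 rose and 0 fell, against 4.58% and 5.67% of all genes. For adrenal, *MC2R*, the corticotropin receptor, had 0.0512, 0.0731 and 0.138 FPKM in XX gonads, against 0.973, 1.61 and 3.18 FPKM in XY gonads and *TH* 0.211, 0.196 and 0.122 FPKM in XX gonads, against 3.03, 1.35 and 1.4 FPKM in XY gonads. Of the 3 adrenal genes tested, 0 were called, against 10.2% of all genes. *CYP21A2* was not identified by that symbol. A locus named *CYP21*, which was not in the list, had 1.91, 1.74 and 2.2 FPKM in XX gonads, against 5.74, 4.36 and 6.53 FPKM in XY gonads and fell (log2 difference -1.14 ± 0.15, adjusted p = 0.0034). The adjusted p of *MC2R* and *TH* was under 0.05 but 0.28 and 0.15 with depth as a covariate, and it was also over 0.05 for *MC2R* without any 1 of 5 libraries (0.091 to 0.13) and for *TH* without any 1 of the 6 (0.058 to 0.086). The adrenal sums were 51.2 to 57.9 FPKM in XX gonads and 63.0 to 90.4 FPKM in XY gonads, most of it from *CHGA*. For surface epithelium, *UPK1B* stayed under 0.1 FPKM in each gonad, *KRT19* had 12.8, 13.5 and 15.7 FPKM in XX gonads, against 13.8, 11.5 and 8.59 FPKM in XY gonads and only *WT1* was called among 3 genes tested, against 10.2% of all genes.

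Among blood vessel genes, 1 of 12 tested rose and 0 fell, against 4.58% and 5.67% of all genes. *TEK*, the angiopoietin receptor, had 35.5, 41.1 and 47.3 FPKM in XX gonads, against 13.1, 18 and 18.2 FPKM in XY gonads (log2 difference 1.28 ± 0.16, adjusted p = 0.003), while *PECAM1* had 22.5, 27.5 and 25.2 FPKM in XX gonads, against 28.9, 38 and 34.8 FPKM in XY gonads and *CDH5* 36.5, 47.3 and 43.2 FPKM in XX gonads, against 37.4, 49.1 and 46.8 FPKM in XY gonads, neither past the test. Summed endothelial levels were 253 to 297 FPKM in XX gonads and 247 to 276 FPKM in XY gonads. Of 9 immune genes tested, 1 fell and 0 rose, against 5.67% and 4.58% of all genes. It was *TYROBP*, a macrophage adaptor, with 4.36, 5.32 and 3.55 FPKM in XX gonads, against 14.7, 12.7 and 7.32 FPKM in XY gonads (log2 difference -1.18 ± 0.26, adjusted p = 0.021), and the call was lost without XX embryo 1 or 3 or XY embryo 2 (adjusted p 0.074 to 0.095). The immune sums were 27.4 to 48.8 FPKM in XX gonads and 44.0 to 60.9 FPKM in XY gonads. XX embryo 2 stood apart for blood: the complement gene *C1QB* had 6.41 FPKM there against 1.38 and 1.44 FPKM in the other ovaries, and *SLC4A1*, the red cell anion exchanger, 3.68 FPKM against 0.423 and 0.403 FPKM. Erythroid sums ran from 14.5 to 35.3 FPKM in XX gonads and from 38.1 to 40.5 FPKM in XY gonads, and 0 of 5 genes were called, against 10.2% of all genes.

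Of the liver markers, *AFP*, *APOB*, *TTR*, *FGB* and *AHSG* were under 0.5 FPKM in each gonad, and *ALB* had 1.93, 1.92 and 2.08 FPKM in XX gonads, against 2.46, 2.46 and 2.19 FPKM in XY gonads. *APOA1*, an apolipoprotein gene, nonetheless had 16.4, 18.7 and 16.4 FPKM in XX gonads, against 133, 121 and 105 FPKM in XY gonads and *SERPINA1*, a protease inhibitor gene, 0.279, 0.632 and 0.283 FPKM in XX gonads, against 9.33, 7.51 and 6.26 FPKM in XY gonads, and both fell in XX (log2 difference -2.73 ± 0.11, adjusted p = 5.1e-05 and log2 difference -2.63 ± 0.18, adjusted p = 0.0003). The skeletal muscle regulators *MYOG* and *MYOD1* had at most 0.022 and 0.014 FPKM, and *TNNT3*, a troponin gene, fell in XX with 2.37, 2.28 and 2.27 FPKM in XX gonads, against 9.67, 6.82 and 8.34 FPKM in XY gonads (log2 difference -1.48 ± 0.13, adjusted p = 0.00068). Of 10 proliferation genes none was called, against 10.2% of all genes. *MKI67* had 32.6, 39.8 and 35.5 FPKM in XX gonads, against 17.4, 20.3 and 19.6 FPKM in XY gonads (log2 difference 0.88 ± 0.10, adjusted p = 0.0022). An adjusted p under 0.05 was found for 5 of the 10, all higher in XX, against 16.3% of all genes. With depth as a covariate it was 0.22 for *MCM2* and *TOP2A* and 0.13 for *PLK1*. Without XX embryo 2 or 3 or XY embryo 2 it was 0.051 to 0.078 for *MCM2* and *TOP2A*. Of 10 immediate early and stress genes, which rise when tissue is handled, 1 (*JUNB*) fell and 0 rose, against 5.67% and 4.58% of all genes. *JUNB* had 3.57, 3.74 and 3.53 FPKM in XX gonads, against 10.2, 7.98 and 8.69 FPKM in XY gonads (log2 difference -1.10 ± 0.10, adjusted p = 0.00089). The sums of this list were 344 to 394 FPKM in XX gonads and 579 to 652 FPKM in XY gonads. The part of handling, other tissues or blood in the differences above was not tested.

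*Xist* marks the inactive X chromosome. The locus named *Xist_exon4* (chromosome X, 57322822 to 57356125, minus strand) had 177, 153 and 189.7 FPKM in XX gonads, against 0.149, 0.265 and 0.0511 FPKM in XY gonads, so every library matched its labelled sex (log2 difference 7.23 ± 0.11, adjusted p = 3.4e-06). Of 465 X-linked genes tested, 23 rose in XX (4.95%) and 44 fell (9.46%), against 520 (4.56%) and 629 (5.52%) of 11398 autosomal genes. The median log2 difference was 0.04 for both. The X-linked genes that rose with the lowest adjusted p included *Xist_exon4*, *CAPN6*, *LDOC1*, *TENM1* and *PCDH19*. *LDOC1* had 518, 507 and 504 FPKM in XX gonads, against 118, 123 and 100.01 FPKM in XY gonads (log2 difference 2.16 ± 0.10, adjusted p = 6.6e-05), and *TENM1*, a teneurin gene, averaged 8.33 ± 0.389 FPKM in XX gonads and 1.14 ± 0.152 FPKM in XY gonads. *PCDH19*, a protocadherin gene, averaged 13 ± 0.689 FPKM in XX gonads and 1.8 ± 0.445 FPKM in XY gonads.

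X-linked genes with homologues on the Y often escape inactivation in mammals. *KDM5C* had 30.1, 33.5 and 31.7 FPKM in XX gonads, against 19.5, 23.8 and 20.4 FPKM in XY gonads (log2 difference 0.56 ± 0.10, adjusted p = 0.0091), *KDM6A* 7.28, 8.29 and 7.44 FPKM in XX gonads, against 3.89, 5.38 and 6.14 FPKM in XY gonads (log2 difference 0.51 ± 0.15, adjusted p = 0.056) and *DDX3X* 119.7, 137 and 126 FPKM in XX gonads, against 57, 85.9 and 87.5 FPKM in XY gonads (log2 difference 0.75 ± 0.18, adjusted p = 0.028). Of 12 tested, 10 had every XX value above every XY value, against 30.2% of all genes, and 5 had an adjusted p under 0.05, against 16.3%. None was called, against 10.2% of all genes, and *OFD1* and *CUL4B* overlapped. The adjusted p of *KDM5C* was 0.058 with depth as a covariate, and that of *DDX3X* was 0.14 with depth and 0.074 to 0.1 without any 1 XX embryo. Their median log2 difference was 0.54.

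The largest ratios in favour of the ovary, after *Xist_exon4*, included several genes best known from the nervous system. *CBLN2* (chromosome 1, 6373420 to 6386578, plus strand), a secreted organizer of synapses, had 239, 201 and 186 FPKM in XX gonads, against 2.34, 4.4 and 2.34 FPKM in XY gonads, 69-fold higher in XX (log2 difference 5.73 ± 0.22, adjusted p = 3.7e-05). *OLFM3*, an olfactomedin gene (chromosome 6, 48258998 to 48453315, plus strand), had 38.9, 48.9 and 43.2 FPKM in XX gonads, against 0.292, 0.926 and 0.566 FPKM in XY gonads (log2 difference 4.82 ± 0.17, adjusted p = 2.7e-05). *GABRA2*, a subunit of the GABA-A receptor, had 44.9, 47.6 and 59.9 FPKM in XX gonads, against 0.755, 1.19 and 1.15 FPKM in XY gonads (log2 difference 4.67 ± 0.14, adjusted p = 2.1e-05). The testes stayed below 5 FPKM for all 3 genes and the ovaries above 38 FPKM. *CADPS*, a factor of vesicle release, averaged 24.8 ± 2.95 FPKM in XX gonads and 0.415 ± 0.116 FPKM in XY gonads, *NTM*, a neural adhesion gene, 11.4 ± 1.63 FPKM in XX gonads and 0.117 ± 0.069 FPKM in XY gonads, and *SEMA3E*, a guidance signal, 39.9 ± 3.44 FPKM in XX gonads and 0.904 ± 0.359 FPKM in XY gonads.

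The others were lower in level. *DCT*, an enzyme of melanin synthesis (chromosome 22, 45271048 to 45305523, minus strand), had 5.97, 7.11 and 3.73 FPKM in XX gonads, against 0, 0 and 0.0233 FPKM in XY gonads, and *CRHR1*, the receptor of corticotropin-releasing hormone (chromosome 9, 9708472 to 9763402, minus strand), had 3.91, 4.14 and 7.27 FPKM in XX gonads, against 0.00458, 0.0449 and 0 FPKM in XY gonads. *CAPN6*, an X-linked calpain gene without protease activity, had 11, 16 and 11.8 FPKM in XX gonads, against 0.174, 0.0985 and 0.223 FPKM in XY gonads (log2 difference 3.57 ± 0.16, adjusted p = 6.3e-05). *CDH4*, retinal cadherin, averaged 10.9 ± 0.988 FPKM in XX gonads and 0.201 ± 0.053 FPKM in XY gonads and *BARX2*, a homeobox gene, 4.03 ± 1.3 FPKM in XX gonads and 0.0456 ± 0.0395 FPKM in XY gonads. *CTXN3* had 1.93, 4.53 and 8.54 FPKM in XX gonads, against 0, 0.034 and 0.0469 FPKM in XY gonads, a 185-fold ratio with wide spread among ovaries (log2 difference 2.39 ± 0.43, adjusted p = 0.011), and its adjusted p was 0.052 without XX embryo 2 and 0.06 with depth as a covariate.

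The largest ratios in favour of the testis included *HSD17B3*, *DLK1* and *INHBB*, described above, and 3 genes on the X chromosome. The X-linked *VSIG1*, an immunoglobulin-domain gene (chromosome X, 81574105 to 81618345, plus strand), had 0.0598, 0.064 and 0.037 FPKM in XX gonads, against 27.6, 53 and 37.7 FPKM in XY gonads, 736-fold lower in XX (log2 difference -5.21 ± 0.23, adjusted p = 6.3e-05). *SMPX*, a small muscle protein gene on the X, had 0.322, 0 and 0 FPKM in XX gonads, against 35.1, 34.7 and 29.3 FPKM in XY gonads, and *FATE1*, an X-linked gene named for fetal and adult testis expression, had 0.204, 0.0974 and 0.0986 FPKM in XX gonads, against 19.4, 14.6 and 10 FPKM in XY gonads. None of these X-linked genes passed 0.5 FPKM in an ovary. *SCRG1* (chromosome 25, 23984750 to 24010839, minus strand) had 0.973, 2.4 and 1.56 FPKM in XX gonads, against 549.7, 369 and 421 FPKM in XY gonads, 271-fold lower in XX (log2 difference -7.42 ± 0.24, adjusted p = 2.1e-05). *GATM* (chromosome 30, 11723934 to 11742973, minus strand), the first enzyme of creatine synthesis, had 3.33, 2.71 and 3.27 FPKM in XX gonads, against 396, 388 and 412 FPKM in XY gonads (log2 difference -6.61 ± 0.09, adjusted p = 2e-06), and *SERPINA5*, a serine protease inhibitor of the male tract, had 0.562, 0.587 and 0.443 FPKM in XX gonads, against 126, 161 and 155 FPKM in XY gonads (log2 difference -6.59 ± 0.11, adjusted p = 4.5e-06).

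*COL9A1*, a chain of the cartilage collagen IX, had 1.13, 0.904 and 0.875 FPKM in XX gonads, against 108, 111 and 88.6 FPKM in XY gonads (log2 difference -5.71 ± 0.11, adjusted p = 6.7e-06). *SLC22A6*, an organic anion transporter best known from kidney, averaged 0.399 ± 0.151 FPKM in XX gonads and 37.1 ± 5.19 FPKM in XY gonads, and *ENPP7*, a sphingomyelinase gene of the gut, 0.0769 ± 0.0274 FPKM in XX gonads and 7.54 ± 0.963 FPKM in XY gonads. *KRT79* averaged 0.092 ± 0.0455 FPKM in XX gonads and 8.67 ± 2.99 FPKM in XY gonads and *MYOZ2*, a sarcomere gene, 0.053 ± 0.0147 FPKM in XX gonads and 5.75 ± 2.24 FPKM in XY gonads. *CIDEA*, a lipid droplet protein, had 0.232, 0.193 and 0.296 FPKM in XX gonads, against 8.73, 46.5 and 21.9 FPKM in XY gonads. Its testes differed by more than 5-fold among themselves, and the adjusted p of 0.0033 became 0.06 with depth as a covariate.

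Loci without a gene name in the assembly also separated the sexes. Of 6007 tested, 116 (1.93%) rose and 101 (1.68%) fell in XX. XLOC_000057 (chromosome 1, 15657166 to 15665346, plus strand) had 17.2, 11.5 and 11.8 FPKM in XX gonads, against 0.0244, 0 and 0 FPKM in XY gonads (log2 difference 3.83 ± 0.17, adjusted p = 6.3e-05). XLOC_026060 (chromosome 24, 10453245 to 10477149, plus strand) had 11.6, 10.4 and 13.7 FPKM in XX gonads, against 0.103, 0.0596 and 0.0636 FPKM in XY gonads (log2 difference 3.58 ± 0.12, adjusted p = 2.8e-05). XLOC_056287 (chromosome X, 57322794 to 57330192, plus strand) overlaps the *Xist_exon4* locus on the other strand and XLOC_001740 (chromosome 1, 6377388 to 6377945, strand not assigned) lies inside the *CBLN2* locus. They averaged 15.5 ± 4.3 FPKM in XX gonads and 0.0275 ± 0.0309 FPKM in XY gonads for XLOC_056287 and 5.53 ± 2.67 FPKM in XX gonads and 0.0303 ± 0.0524 FPKM in XY gonads for XLOC_001740, and since the library kit does not mark strand, their reads cannot be told apart from those of the named genes.

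The lower loci were of 2 kinds. XLOC_021274, XLOC_021275 and XLOC_021276 lie side by side on the plus strand of chromosome 20 between 56782444 and 56789076, opposite a locus that includes *SF3A2*. XLOC_021276 had 0.917, 1.71 and 1.51 FPKM in XX gonads, against 1874, 1594 and 1371 FPKM in XY gonads (log2 difference -9.41 ± 0.17, adjusted p = 6.1e-06), XLOC_021275 had 2.05, 1.91 and 1.85 FPKM in XX gonads, against 1327, 1009.5 and 1102 FPKM in XY gonads, and XLOC_021274 had 1.46, 1.21 and 1.18 FPKM in XX gonads, against 723, 627 and 587 FPKM in XY gonads. These are among the largest differences in the data. The strand of these loci comes from the assembly. As the kit does not mark strand, their reads cannot be told apart from those of the opposite locus where both overlap. The files give these loci no gene name, and *AMH* has no locus of its own in the same assembly. XLOC_050094 (chromosome 7, 75390838 to 75397483, minus strand), opposite *TWSG1*, had 17.1, 3.32 and 18.8 FPKM in XY gonads and estimates of practically 0 in XX gonads, so no fold is given. The same limit of strand applies to XLOC_050094.

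Control embryos of d37 and d39, from 2 other litters, allowed the same difference to be taken 5 to 7 days earlier in libraries that share none with d44. The library of XY embryo 2 of d37 stood apart by its FPKM, which sum to 2272000 against 736400 to 892300 in the other 11, and by 8.47 FPKM of *Xist_exon4*, against 0.0346 to 0.072 FPKM in the other 5 XY gonads of d37 and d39 and 143 to 297 FPKM in the 6 XX gonads. With all 12 libraries 1019 of 12104 genes tested (8.42%) were called, 406 higher (3.35%) and 613 lower (5.06%) in XX. Of the 543 genes higher at d44, 529 had the same sign at d37-39, 471 of them with an adjusted p under 0.05, and 331 were called. Of the 673 lower genes, 662 had the same sign, 617 with an adjusted p under 0.05, and 459 were called. None was called in the opposite direction. Without XY embryo 2 of d37, 1033 genes were called, among them 330 of the 543 and 477 of the 673, and d39 alone gave 1186 calls. The median log2 difference of the higher genes was 1.37 at d44 and 1.10 at d37-39, and that of the lower genes was -1.43 at d44 and -1.24 at d37-39. Both sets were chosen by their d44 difference, so these medians do not measure a change with age. Across 11738 genes tested at both ages the differences had r = 0.877 and rho = 0.792, a description across genes that are not independent replicates.

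**Figure D4:**
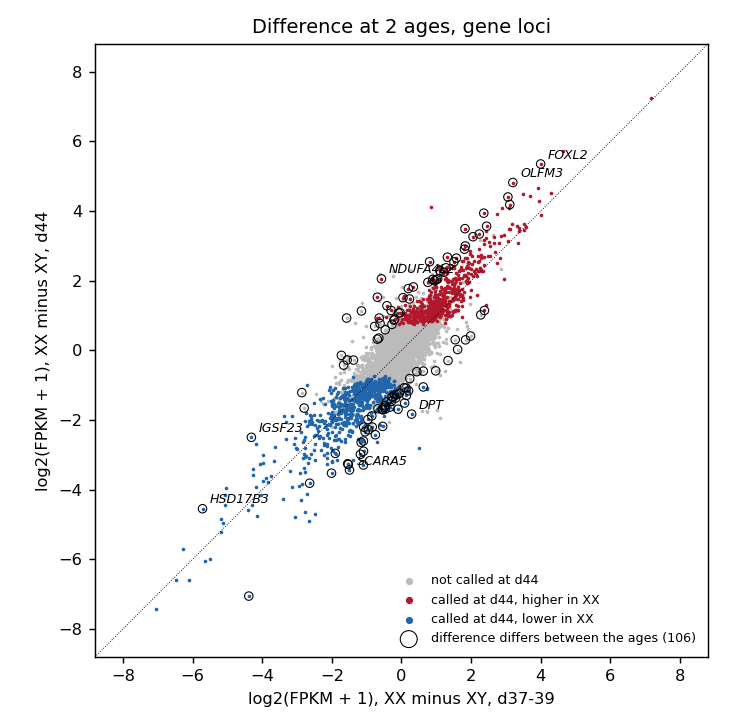
Each point is 1 gene locus, with its log2(FPKM + 1) difference, XX minus XY, at d37-39 on the x axis and at d44 on the y axis, coloured by its call at d44. Circles mark the 106 genes whose difference was itself different between the ages by the interaction test, and the dotted line marks equal differences. Called genes lie along the line, and *FOXL2* and *OLFM3* lie above it.

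Whether the difference itself changed was tested with an interaction over all 18 single-embryo control libraries. It was called for 106 of 12234 genes (0.866%), 52 in the positive (0.425%) and 54 in the negative direction (0.441%). Of the genes higher at d44, 36 had a larger excess than at d37-39, and of those lower at d44, 43 had a larger deficit. An interaction in the opposite direction was called for 1 of the higher and 2 of the lower genes. Both sets were chosen by their d44 difference, which the interaction contains, so that choice favours larger differences at d44. Because each day is 1 litter, day and litter cannot be told apart. With d39 alone as the earlier day 13 genes were called, 12 of them among the 106, and with d37 alone 210 were called. Without XY embryo 2 of d37 it was 90, with 83 among the 106.

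Ovarian genes with a larger difference at d44 included *FOXL2*. It averaged 20.8 ± 2.79, 26.7 ± 3.18 and 48.5 ± 1.49 FPKM in XX gonads at d37, d39 and d44, against 0.62 ± 0.41, 0.48 ± 0.155 and 0.211 ± 0.067 FPKM in XY gonads, and its difference grew by 1.36 on the log2 scale. *IRX5* averaged 2.87 ± 1.36, 10 ± 0.295 and 17.3 ± 1.61 FPKM in XX gonads at d37, d39 and d44, against 0.26 ± 0.105, 0.228 ± 0.108 and 0.187 ± 0.0468 FPKM in XY gonads (interaction 1.58, adjusted p = 0.005). In both genes the XY level was below 1 FPKM at each age. *OLFM3* behaved otherwise, with 44.2 ± 7.37, 39 ± 2.94 and 43.7 ± 5 FPKM in XX gonads at d37, d39 and d44, against 5.21 ± 0.94, 2.49 ± 0.686 and 0.594 ± 0.318 FPKM in XY gonads (interaction 1.62, adjusted p = 0.0032), where the XX level stayed level and the XY level was lower at d44. *CADPS*, *CAPN6*, *DCT* and *CRHR1* also had a larger XX excess at d44.

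*ESR2* changed the ranking of its sex means. It averaged 8.11 ± 0.355, 6.76 ± 0.672 and 9.42 ± 0.175 FPKM in XX gonads at d37, d39 and d44, against 9.48 ± 0.984, 7.83 ± 0.288 and 4.63 ± 0.665 FPKM in XY gonads. The XX mean was below the XY mean at d37 and d39 and above it at d44 (interaction 1.09, adjusted p = 0.00066). The earlier deficit did not pass the limma test of d37-39 (log2 difference -0.19 ± 0.07, adjusted p = 0.065). *NDUFA4L2*, a mitochondrial protein gene, averaged 2.2 ± 0.833, 12.9 ± 3.14 and 37.1 ± 2.17 FPKM in XX gonads at d37, d39 and d44, against 6.09 ± 3.62, 14.4 ± 3.51 and 8.15 ± 0.281 FPKM in XY gonads (interaction 2.63, adjusted p = 0.0093). Its d37-39 difference did not pass the limma test either (log2 difference -0.57 ± 0.29, adjusted p = 0.20). *CCK*, the gene of the peptide cholecystokinin, averaged 10.7 ± 3.86, 12.5 ± 1.93 and 11.2 ± 2.22 FPKM in XX gonads at d37, d39 and d44, against 48.1 ± 8.69, 27 ± 6.61 and 5.88 ± 3.55 FPKM in XY gonads (interaction 2.50, adjusted p = 0.0078), *PCP4*, a calmodulin-binding protein gene, 20.1 ± 8.13, 13.8 ± 1.58 and 17.6 ± 1.77 FPKM in XX gonads at d37, d39 and d44, against 51.8 ± 3.44, 27.1 ± 5.9 and 9.13 ± 7.55 FPKM in XY gonads (interaction 2.28, adjusted p = 0.028), and *SPTSSB*, a sphingolipid synthesis gene, 9.72 ± 5.57, 16.3 ± 2.77 and 15.8 ± 2.43 FPKM in XX gonads at d37, d39 and d44, against 26.1 ± 5.89, 15.6 ± 2.33 and 4.96 ± 1.71 FPKM in XY gonads (interaction 2.22, adjusted p = 0.01). At d44 itself *CCK* and *PCP4* overlapped between the sexes and were not called (adjusted p = 0.12 and 0.15). *HSD17B3* averaged 0.188 ± 0.0698, 0.0805 ± 0.0265 and 0.103 ± 0.00546 FPKM in XX gonads at d37, d39 and d44, against 56.9 ± 6.38, 60.8 ± 10.4 and 25 ± 3.91 FPKM in XY gonads (interaction 1.17, adjusted p = 0.0035), a positive value because its deficit in XX was smaller at d44. *IGSF23* likewise averaged 0.228 ± 0.253, 0.437 ± 0.123 and 0.301 ± 0.0595 FPKM in XX gonads at d37, d39 and d44, against 30.5 ± 8.88, 21.8 ± 5.89 and 6.46 ± 1.61 FPKM in XY gonads (interaction 1.81, adjusted p = 0.0069). *SLC52A3*, a riboflavin transporter gene of the Sertoli list, averaged 7.4 ± 1.05, 9.91 ± 1.77 and 11.1 ± 0.677 FPKM in XX gonads at d37, d39 and d44, against 35.9 ± 2.16, 26 ± 4.23 and 12.4 ± 0.83 FPKM in XY gonads (interaction 1.58, adjusted p = 0.00053), so the sexes were apart at d37 and d39 and close at d44.

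Testis genes whose difference was larger at d44 were led by *DPT*, which encodes the matrix protein dermatopontin. *DPT* averaged 0.611 ± 0.188, 1.85 ± 0.205 and 5.35 ± 0.135 FPKM in XX gonads at d37, d39 and d44, against 0.156 ± 0.0384, 1.64 ± 0.221 and 22 ± 6 FPKM in XY gonads (interaction -2.12, adjusted p = 0.00014). Its mean was higher in XX at d37 and d39 and lower in XX at d44. The earlier excess did not pass the limma test of d37-39 (log2 difference 0.29 ± 0.13, adjusted p = 0.13). *SCARA5*, a ferritin receptor, averaged 4.08 ± 1.54, 1.14 ± 0.5 and 1.53 ± 0.32 FPKM in XX gonads at d37, d39 and d44, against 6.77 ± 2.46, 10 ± 1.17 and 26.3 ± 1.61 FPKM in XY gonads (interaction -1.94, adjusted p = 0.0073), and *PCDH8*, a protocadherin, 3.53 ± 0.547, 3.14 ± 0.498 and 1.02 ± 0.261 FPKM in XX gonads at d37, d39 and d44, against 8.5 ± 1.51, 15.9 ± 3.24 and 18.2 ± 1.12 FPKM in XY gonads (interaction -1.71, adjusted p = 0.00066). *KCNE1*, a potassium channel subunit, averaged 1.54 ± 0.355, 2 ± 0.168 and 0.884 ± 0.0963 FPKM in XX gonads at d37, d39 and d44, against 3.66 ± 0.699, 6.47 ± 1.37 and 13.1 ± 2.38 FPKM in XY gonads (interaction -1.81, adjusted p = 0.00053). *FNDC1* and *KCNK3* had interactions of -1.81 and -1.75. Against d39 alone, the adjusted p stayed under 0.05 for *DPT*, *ESR2*, *HSD17B3*, *KCNE1*, *PCDH8* and *SLC52A3* among the 24 interactions named here and in the closing observations.

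**Figure D5:**
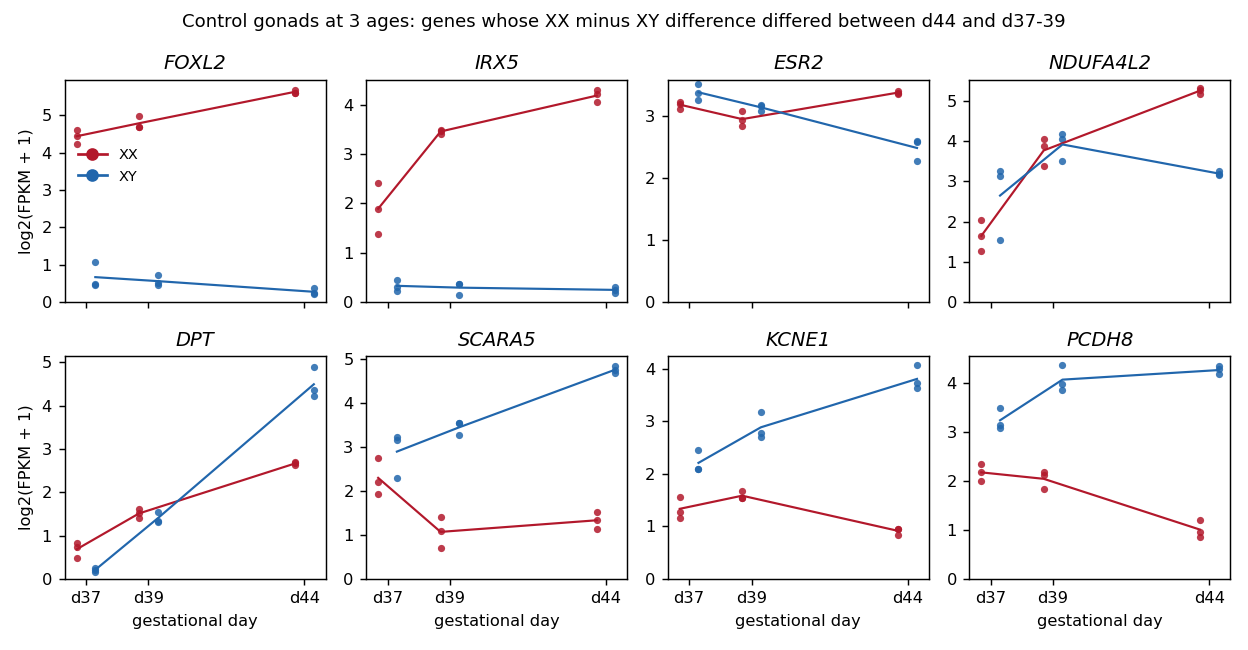
Each point is log2(FPKM + 1) of 1 gonad pair at gestational day 37, 39 or 44, with XX embryos in red and XY embryos in blue (3 per sex and day, drawn side by side around the day) and lines through the means. Each day is a different litter. XX values of *FOXL2* and *IRX5* are highest at d44, and the lines through the means of *ESR2* and *NDUFA4L2* cross. XY values of *DPT*, *SCARA5*, *KCNE1* and *PCDH8* stand above XX values at d44.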

How the data were processed

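RNA was extracted from the flash-frozen gonad pair of each embryo, made into libraries with the TruSeq RNA v2 polyA kit, which does not mark strand, and sequenced as single-end reads. The study pooled libraries for sequencing by status, as XX DSD at risk or control. The authors trimmed reads with cutadapt (1.5 in the submitters' processing notes, where the study's methods name another version), aligned them to canFam3 with TopHat2 (2.0.13) and the Ensembl annotation, and made tables with Cufflinks (2.2.1), whose Cuffnorm step scales libraries. The deposited values are FPKM, already normalised by length and depth, so read counts are unknown, intervals for counting error cannot be given, and a fold is relative to each library's total. There are 2 such tables, 1 for annotated genes and 1 for loci of an assembly guided by the annotation, with exon positions from the authors' assembly file (1-based). Ensembl identifiers of the first table were not paired with symbols, so the assembly was used, by names alone. *AMH* and *NR5A1* were read from the first, under main settings only: *AMH* is written there by name, and *NR5A1* was found by the identifier that the study's pathway gene list gives for SF1, a pairing not checked otherwise.

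Loci with 1 gene name of their own (19717) were counted as gene loci, 35322 had no name, 2800 shared a name and 942 held several genes. Of the gene loci 12783 were found by symbol in a RefSeq table (UU_Cfam_GSD_1.0, used for names and chromosomes only), 149 of them on another chromosome, and 3 such list members were left out (*NANOG*, *TMSB4X*, *KRT18*). Of the symbols in 24 gene lists, those sharing a locus or not identified were not counted.

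Groups came from the sample labels, and embryos were numbered in accession order. Tests used limma (3.58.1, R 4.3.3) on log2(FPKM + 1), two-sided, with a mean-variance trend, over loci with a mean of at least 1 FPKM in either sex and Benjamini-Hochberg adjustment. A gene was called at an adjusted p under 0.05, a ratio of at least 2 and a mean of at least 4 FPKM. The d37-39 difference was the mean of 2 within-litter differences, and the interaction (d44 minus d37-39) needed an absolute value of at least 1. Alternatives changed the pseudocount, filter, scaling, trend, table, depth term, thresholds and libraries used, with 1 d37 library left out as an alternative chosen after seeing the data. Differences are on the log2(FPKM + 1) scale, which understates those of low genes. An exact permutation test of 3 against 3 cannot go below p = 0.10 and was not used. An exact 0 can be a failed estimate.

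Genes were named by rule: the 15 largest ratios in each direction without overlap, up to 6 called members and the first 2 members of each list, genes of the study's own account that were listed, up to 6 interactions in each direction, up to 6 X-linked genes that rose and up to 4 unnamed loci in each direction. Other list members were named after their values were seen. Some genes that these rules select are not reported here, though list counts include them. The members, lists and rules were chosen with earlier results of these data known. Comparisons with XX DSD gonads and the 2 d34 pools were not analysed here. Python 3.11.15, pandas 2.3.3, numpy 2.4.6 and matplotlib 3.10.9 were used for tables and plots.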

Additional observations from a re-analysis of the deposited data

Results flagged for a closer look

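The sex difference itself differed between d44 and d37-39 by the interaction test for 24 of the genes and loci described. Each value is the XX minus XY log2 difference at d44 minus that at d37-39, with a limma adjusted p. The genes were called for that difference and each day is 1 litter, so age and litter cannot be told apart.

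Positive values were found for *NDUFA4L2* (2.63, adjusted p = 0.0093), *CCK* (2.50, 0.0078), *PCP4* (2.28, 0.028), *SPTSSB* (2.22, 0.010), *IGSF23* (1.81, 0.0069), *CRHR1* (1.74, 0.0060), *OLFM3* (1.62, 0.0032), *IRX5* (1.58, 0.0050), *SLC52A3* (1.58, 0.00053), *DCT* (1.36, 0.014), *FOXL2* (1.36, 0.0035), *HSD17B3* (1.17, 0.0035), *CAPN6* (1.12, 0.039), *ID3* (1.10, 0.050), *ESR2* (1.09, 0.00066) and *CADPS* (1.08, 0.015), and for the unnamed locus XLOC_000057 (1.99, 0.00020). *ID3*, a target of BMP signalling, averaged 27.4 ± 2.62, 37.4 ± 6.74 and 45.8 ± 2.92 FPKM in XX gonads at d37, d39 and d44, against 79.6 ± 11.6, 93.9 ± 35.6 and 55.9 ± 4.23 FPKM in XY gonads. Its XY level was above its XX level at each age, and the sexes were closest at d44.

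Negative values were found for *DPT* (-2.12, 0.00014), *SCARA5* (-1.94, 0.0073), *FNDC1* (-1.81, 0.0069), *KCNE1* (-1.81, 0.00053), *KCNK3* (-1.75, 0.014), *PCDH8* (-1.71, 0.00066) and *KRT19* (-1.54, 0.022). *KRT19*, a keratin of surface epithelium, averaged 34.6 ± 7.16, 37.5 ± 4.51 and 14 ± 1.51 FPKM in XX gonads at d37, d39 and d44, against 8.71 ± 1.89, 10.4 ± 3.89 and 11.3 ± 2.61 FPKM in XY gonads, so the XX excess of d37 and d39 was not seen at d44. Leaving out single d44 libraries took 7 of the 24 past an adjusted p of 0.05, with highest values of 0.14 for *ID3*, 0.13 for *CAPN6*, 0.086 for *PCP4*, 0.070 for *KRT19*, 0.056 for *DCT* and *CADPS* and 0.051 for *KCNK3*. Without XY embryo 2 of d37 the adjusted p of *ID3* was 0.071 and that of *CAPN6* 0.055, and it stayed under 0.05 for the other 22.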

How the results depend on the processing

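No paired analysis was possible because the labels number embryos by identifier only, so that no number is shared between the sexes. The count of genes called at d44 was 896 to 1390 in alternatives that kept the thresholds, against 1216, and 0 of the 1216 were called in the opposite direction in those fitted on the same loci. The depth covariate gave the lowest count and the table of annotated genes the highest (606 higher, 784 lower). Leaving out 1 library gave 497 to 552 higher and 607 to 684 lower genes. Other thresholds moved the count: a fold of 1.5 gave 2234 (1078 higher, 1156 lower), a fold of 3 gave 624 (259 and 365), and a group mean of 10 FPKM gave 798 (332 higher). The d37-39 count of 1019 was 845 with d37 alone and 1186 with d39 alone. Leaving out XY embryo 2 of d37, an alternative chosen after seeing the data, gave 1033 there and 90 interactions. The interaction count of 106 was 210 with d37 alone, 13 with d39 alone, and 70 to 103 without 1 d44 library (70 without XX embryo 3). For 294 genes and loci, 4066 values were recomputed: 3769 stayed on the same side of the threshold, 207 lost significance and 90 gained it. Signs were compared only where the main fit or the alternative passed, and 0 reversed there. Depth as a covariate took 56 of the 294 past an adjusted p of 0.05, including the called *FST*, *SFRP1*, *HOPX*, *LHCGR*, *PRLR*, *PTGDS*, *COL9A3*, *CIDEA*, *CTXN3*, *DPPA3*, *SPTSSB* and *TYROBP*. The cause was not tested. Depth did not overlap between the sexes and low values carry few reads, so genes below a few FPKM are least precise.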

Other observations

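Gene families outside the lists were counted by symbol, chosen after results were known and given as descriptions. Of 45 potassium channel subunit genes tested at d44, 10 rose in XX and 7 fell (37.8% called, against 10.2% of all genes). *KCNG1*, a modifying subunit, had 8.21, 10.4 and 11.8 FPKM in XX gonads, against 1.07, 1.38 and 0.865 FPKM in XY gonads (log2 difference 2.40 ± 0.16, adjusted p = 0.00025). *KCNE1L*, an accessory subunit, had 7.65, 7.18 and 8.44 FPKM in XX gonads, against 72.1, 90.2 and 89.7 FPKM in XY gonads (log2 difference -3.27 ± 0.12, adjusted p = 2.9e-05). The sexes did not overlap in either gene. The collagens had 7 higher and 6 lower of 33 (39.4%). *COL12A1*, a collagen that binds fibrils, had 38.7, 44 and 36.3 FPKM in XX gonads, against 7.87, 9.1 and 9.28 FPKM in XY gonads (log2 difference 2.06 ± 0.10, adjusted p = 9.1e-05). *COL9A1*, described above, was at the other end. Of 17 semaphorins, secreted or membrane guidance signals, 4 rose and 4 fell (47.1%). *SEMA5B*, a membrane semaphorin, had 48.7, 52.7 and 54 FPKM in XX gonads, against 9.47, 11.2 and 7.49 FPKM in XY gonads (log2 difference 2.36 ± 0.14, adjusted p = 0.00018). Of 31 ADAM and ADAMTS proteases, which cut matrix and membrane proteins, 3 rose and 9 fell (38.7%). *ADAMTS19*, a secreted protease, had 22.5, 24.6 and 21.3 FPKM in XX gonads, against 3.97, 6.26 and 4.03 FPKM in XY gonads (log2 difference 2.07 ± 0.16, adjusted p = 0.00052). *ADAMTS16*, another, had 1.37, 1.82 and 1.7 FPKM in XX gonads, against 19.8, 25.5 and 25.6 FPKM in XY gonads (log2 difference -3.22 ± 0.13, adjusted p = 4.7e-05).

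Cytochromes P450 had 1 higher and 6 lower of 18 (38.9%), and serpins 0 higher and 4 lower of 12 (33.3%). Solute carriers were at the background, with 7 higher and 12 lower of 195 (9.74%). *SLC35F2*, a carrier gene, had 64.5, 62.4 and 59.1 FPKM in XX gonads, against 2.8, 2.02 and 1.87 FPKM in XY gonads (log2 difference 4.29 ± 0.12, adjusted p = 1.6e-05). Zinc finger genes had 3 higher and 4 lower of 208 (3.37%). None of 35 ribosomal protein genes, 54 mitochondrial ribosomal protein genes, 29 proteasome subunits and 5 HOX cluster genes was called at d44 by limma.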
